A study of Mus musculus with 3 samples.

Results

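The HoxC cluster is 1 of the 4 groups of Hox genes of the mouse and lies on chromosome 15. It was followed here through 8 of its genes, Hoxc4, Hoxc5, Hoxc6, Hoxc8, Hoxc9, Hoxc10, Hoxc12 and Hoxc13, which are taken by name, so that no measured value decides which of them is a member. Of these 8, 7 had a probe whose RefSeq accession matched the gene, out of 16998 genes named in this way on the array. Hoxc6 had no matched probe and was not analysed here. Hoxc10 had 2 probes and the others 1 each, so 8 probes, each printed as 1 spot, carry the results.

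RNA came from the primordia of the esophagus, the stomach and the intestine of ICR mice, an outbred laboratory strain, at embryonic day 11.5. It was labelled with Cy3 and hybridised to 1-colour Agilent arrays, with 1 array per organ, so no difference below has a replicate check and no test was run. The number of embryos behind each array, and whether embryos were pooled, is not given in the sources used here, and the extraction text speaks of the stomach for all 3 samples. The organ is therefore taken from the title and the tissue label. The 3 arrays lay on 1 slide, where position and organ cannot be told apart.

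Hox genes encode homeodomain transcription factors that give cells their position along the body axis. Within a cluster the genes are ordered along the chromosome as they are expressed along the body: genes of low number, at the 3′ end, are expressed from anterior levels, and genes of high number, at the 5′ end, are restricted to posterior ones. Genes with the same number in the HoxA, HoxB, HoxC and HoxD clusters are paralogues, descended from 1 ancestral gene. In the embryonic gut, Hox genes are best known from the mesenchyme that surrounds the epithelial tube. Loss of Hoxc4 in mice is known to cause defects of the esophagus.

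By the scanner software's well-above-background flag, more of these genes were measured in intestine than in the other organs. Hoxc4 and Hoxc5 were well above background in all 3 organs and differed by less than 2-fold between any pair. Hoxc8 and Hoxc10 were well above background in the intestine alone, and Hoxc9 was bright in the intestine, faint in the esophagus and not well above background in the stomach. Hoxc12 and Hoxc13, at the 5′ end, were not well above background on any array. In all, 3 of the 7 genes were well above background in esophagus, 2 in stomach and 5 in intestine. This order turned under the software's less strict flag, for a signal positive and significant against the local background, which 6 genes carried in esophagus, 4 in stomach and 5 in intestine. That flag added Hoxc10, by its brighter probe, and Hoxc13 in esophagus and stomach, and Hoxc12 in esophagus. It was also carried by 7, 5 and 7 of the 153 negative control spots in esophagus, stomach and intestine.

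Over all 16998 named genes, 75.7% were well above background on all 3 arrays, as Hoxc4 and Hoxc5 were. The pattern of Hoxc8 and Hoxc10, intestine alone, was found in 4.52% of genes. That of Hoxc9, esophagus and intestine without stomach, was found in 1.39%. A further 14.6% were not well above background anywhere, as Hoxc12 and Hoxc13 were not.

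**Figure D1:**
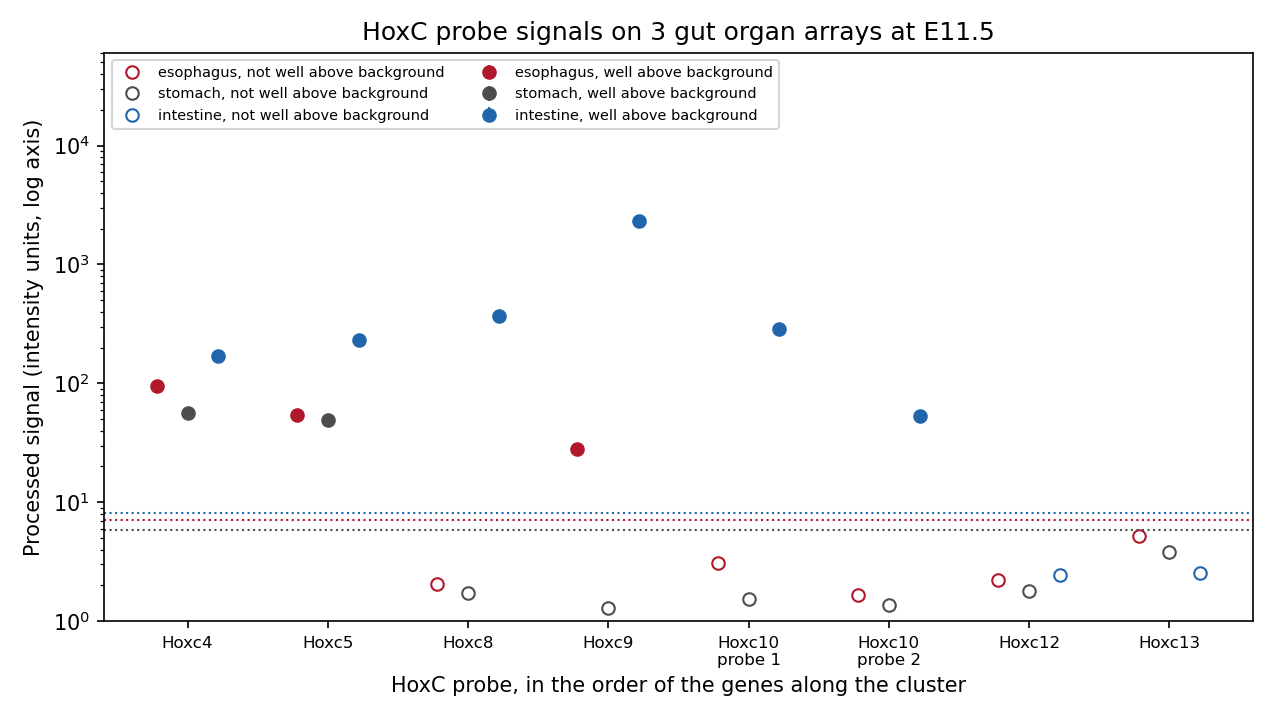
Processed signal (intensity units, log axis) of the 8 HoxC probes on the esophagus, stomach and intestine arrays, with filled points for spots well above background, open points for the others, bars for the scanner software's error and dotted lines at each array's lowest signal well above background. Hoxc4 and Hoxc5 are filled in all organs, Hoxc8 and both Hoxc10 probes in the intestine only, Hoxc9 in the intestine (2332) and the esophagus (28.1), and Hoxc12 and Hoxc13 in none.

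The values below are of 2 kinds. The processed signal is the brightness of a spot after background subtraction, given with the error estimated by the scanner software, which covers the spot and not the embryo. The level is log2 of the processed signal minus log2 of the array's 75th percentile, a signal of 393 on the esophagus array, 334 on the stomach array and 1023 on the intestine array. Levels of 1 probe are compared between organs, and levels of different probes are not compared, except where the nearest profiles are sought. Where a probe was well above background on only 1 of a pair of arrays, only a minimum difference can be given: the other array is entered at its dimmest signal well above background, or at the probe's own signal if that is brighter, and the result is called a bound. That dimmest signal was 7.03 on the esophagus array, 5.85 on the stomach array and 8.17 on the intestine array. Relative to the 75th percentile these are levels of −5.81, −5.84 and −6.97, so the intestine array reached fainter levels than the others, and 74.0% of its spots were well above background against 69.3% and 67.9%. Spots of the same probe, for probes printed 10 times, varied by a median SD of 0.090 (esophagus), 0.076 (stomach) and 0.072 (intestine) log2 units. Where a gene had several probes, the difference varied between them by a median SD of 0.25 log2 units (stomach minus esophagus), 0.46 (intestine minus esophagus) or 0.31 (intestine minus stomach).

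Hoxc4 (probe A_51_P183481, NM_013553), the first of these genes from the 3′ end, gave a processed signal of 94.2 ± 9.58 in esophagus, 56.4 ± 5.82 in stomach and, at its brightest, 171 ± 17.2 in intestine (± is the scanner software's error). Its levels were −2.06 for esophagus, −2.57 for stomach and −2.58 for intestine. Esophagus stood highest on this scale, although the unscaled signal was highest in the intestine. Stomach minus esophagus was −0.51 ± 0.21 log2 units and intestine minus esophagus −0.52 ± 0.21. Stomach and intestine differed by −0.01 ± 0.21, less than the error of the spots. The direction against the intestine rested on the scaling: with spike-in controls as the scale, Hoxc4 was higher in intestine than in esophagus by 0.41 and than in stomach by 0.99, and under median scaling the differences were −0.02 and 0.29.

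A stretch of Hoxc4 regulatory sequence is shown because, of the 8 genes, Hoxc4 alone was matched in the RefSeq promoter table used here, and it was measured in all 3 organs. It runs from 250 bases before to 50 bases after the annotated start, on the plus strand of chr15:103034145-103034444 in GRCm38.p6, and the capitals mark TAAT, the core that homeodomains bind.
Hoxc4 promoter: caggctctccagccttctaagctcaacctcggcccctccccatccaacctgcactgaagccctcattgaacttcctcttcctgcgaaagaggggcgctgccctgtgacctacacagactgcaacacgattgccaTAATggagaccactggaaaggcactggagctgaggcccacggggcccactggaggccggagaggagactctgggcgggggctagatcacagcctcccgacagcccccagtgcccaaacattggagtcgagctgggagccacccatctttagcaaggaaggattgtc
TAAT, searched on both strands, occurred once, and 58.0% of the 32851 promoters of this length in the table held it. TTTATG, a Cdx-type motif that does not overlap TAAT, had 0 matches and was held by 11.9% of promoters. TGATTNAT, a joint Hox and Pbx motif, also had 0 matches and was held by 3.22%. The TATA motif TATAAA had 0 matches, against 13.6% of promoters. G and C made up 60.3% of the bases, and the median over all promoters was 52.7%.

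Hoxc5 (A_52_P283656, NM_175730), the next gene in the cluster, gave processed signals of 54.5 ± 5.65 for esophagus, 49.0 ± 5.06 for stomach and 231 ± 23.1 for intestine. Its levels were −2.85, −2.77 and −2.15 in the same order. Esophagus and stomach could not be told apart, with a difference of 0.08 ± 0.21 log2 units. The intestine stood above esophagus by 0.70 ± 0.21 and above stomach by 0.62 ± 0.21, which is 1.63-fold and 1.54-fold. These steps exceeded the error of the spots and the median SD between probes of 1 gene. Both steps lay below the 90th percentile of that SD, 1.30 against esophagus and 0.91 against stomach. They kept their sign under each processing tried, from 0.20 to 1.64 against esophagus and from 0.04 to 1.62 against stomach.

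Hoxc8 (A_51_P301483, NM_010466), a gene of the middle of the cluster known for its part in the thoracic skeleton, gave a processed signal of 369 ± 37.0 in intestine. In esophagus it gave 2.04 ± 2.04 and in stomach 1.71 ± 1.71. The signals of the foregut organs were about as large as their own errors and lay near the median of the negative control spots, 1.81 in esophagus and 1.44 in stomach. The intestine exceeded the esophagus at least 20.2-fold and the stomach at least 20.6-fold for Hoxc8. These bounds are limited by the dimmest spots that the foregut arrays could measure. After normexp background correction, which adds an offset to every signal, they were 1.44 and 1.20 log2 units and no longer past 4-fold.

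Hoxc9 (A_52_P346987, NM_008272), known for setting the thoracic identity of motor neurons, had the largest differences and bounds given for the cluster. It gave processed signals of 28.1 ± 3.20 for esophagus, 1.30 ± 1.30 for stomach and 2332 ± 233 for intestine. The levels were −3.81 in esophagus and 1.19 in intestine, and the stomach spot was not well above background. Intestine exceeded esophagus 31.9-fold, with an error of 0.22 log2 units, the 10th largest of 13100 differences measured on both arrays. Against stomach the bound of 7.02 log2 units, at least 130-fold, was the largest of the 547 bounds of that comparison. Bounds are minimum differences that depend on the brightness of each probe, so this rank does not make the true difference the largest. After normexp correction these differences were 3.53 and 3.97 log2 units, both still past 4-fold.

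The esophagus signal of Hoxc9 was faint. Of 153 negative control spots in esophagus, 1 was also well above background, at 27.2, close to the 28.1 of Hoxc9, and none was in stomach or intestine. Hoxc9 was at least 4.08-fold lower in stomach than in esophagus, a bound of −2.03 log2 units that was −1.83 under median scaling, −1.80 under quantile normalization and −0.43 after normexp background correction. In each of these 3 it was no longer past 4-fold.

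Markers of other tissues differed between these organs in both directions. Of 10 spinal cord and neural tube markers compared for stomach minus esophagus, 1 was at least 2-fold higher in stomach and 4 lower, with a median of −0.04 log2 units. Of 9 somite and muscle markers, 1 was higher and 6 lower, with a median of −1.80, and of 8 limb markers 1 was higher and 4 lower, with a median of −1.49. Over all genes, 9.85% differed by that much, 4.14% being higher in stomach and the rest lower. Dbx1, Irx3, Pax3, Pax1, Tbx4 and Shox2, chosen after their values were seen, were well above background in esophagus and not in stomach or intestine. In the same lists, Hes5 (1.07), Tcf15 (1.08) and Pitx1 (1.57) were higher in stomach, and Olig2 was well above background in stomach alone. Their part in the esophagus signal of Hoxc9 was not tested.

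Hoxc10 (NM_010462), known for its role in lumbar motor neurons and hindlimb, gave a processed signal of 287 ± 28.7 in intestine with its brighter probe, A_51_P375754. That probe gave 3.07 ± 1.82 in esophagus and 1.53 ± 1.49 in stomach, neither well above background. The other probe, A_52_P351859, gave 53.0 ± 5.61 in intestine, 1.65 ± 1.64 in esophagus and 1.37 ± 1.37 in stomach. Both probes were thus well above background in intestine alone, although the brighter one carried the less strict flag in the other organs too. By the brighter probe, intestine exceeded esophagus at least 15.7-fold and stomach at least 16.0-fold. The dimmer probe, nearer the floor, gave bounds of 2.90-fold and 2.96-fold. After normexp correction the brighter probe stood at 1.11 log2 units against esophagus and 0.97 against stomach, no longer past 4-fold. The dimmer probe then gave no fold.

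Hoxc12 (A_51_P385684, NM_010463) and Hoxc13 (A_51_P378277, NM_010464), the genes at the 5′ end, were not well above background on any array. They have neither a measured difference nor a bound. Hoxc12 gave 2.24 in esophagus, 1.81 in stomach, where the scanner software also marked the spot's local background as an outlier, and 2.44 in intestine. Hoxc13, known for its role in hair and nails, gave 5.18 ± 2.20 in esophagus, 3.82 ± 1.84 in stomach and 2.52 ± 2.52 in intestine. All 6 signals lay below the lowest signal well above background on their array. By the less strict flag, Hoxc12 was positive and significant in esophagus and Hoxc13 in esophagus and stomach, and neither was in intestine.

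Intestine was at least 4-fold above esophagus for 3 HoxC genes, Hoxc8, Hoxc9 and Hoxc10, of the 5 that could be compared, and for 1.82% of the 13905 genes compared over the whole array. No HoxC gene lay 4-fold or more below esophagus, against 3.85% of all genes. Hoxc8, Hoxc9 and Hoxc10 also exceeded stomach by 4-fold or more, as 1.43% of 13820 genes did, and no HoxC gene lay that far below it, as 1.29% did. Both comparisons share the intestine array. Between stomach and esophagus 3 HoxC genes could be compared, and 1, Hoxc9, was at least 4-fold lower in stomach. Over 13737 genes, 1.58% were lower by that much, and 0.684% were higher, among which there was no HoxC gene. The median difference of all genes was 0.15 log2 units for stomach minus esophagus, 0.13 for intestine minus esophagus and −0.02 for intestine minus stomach.

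**Figure D2:**
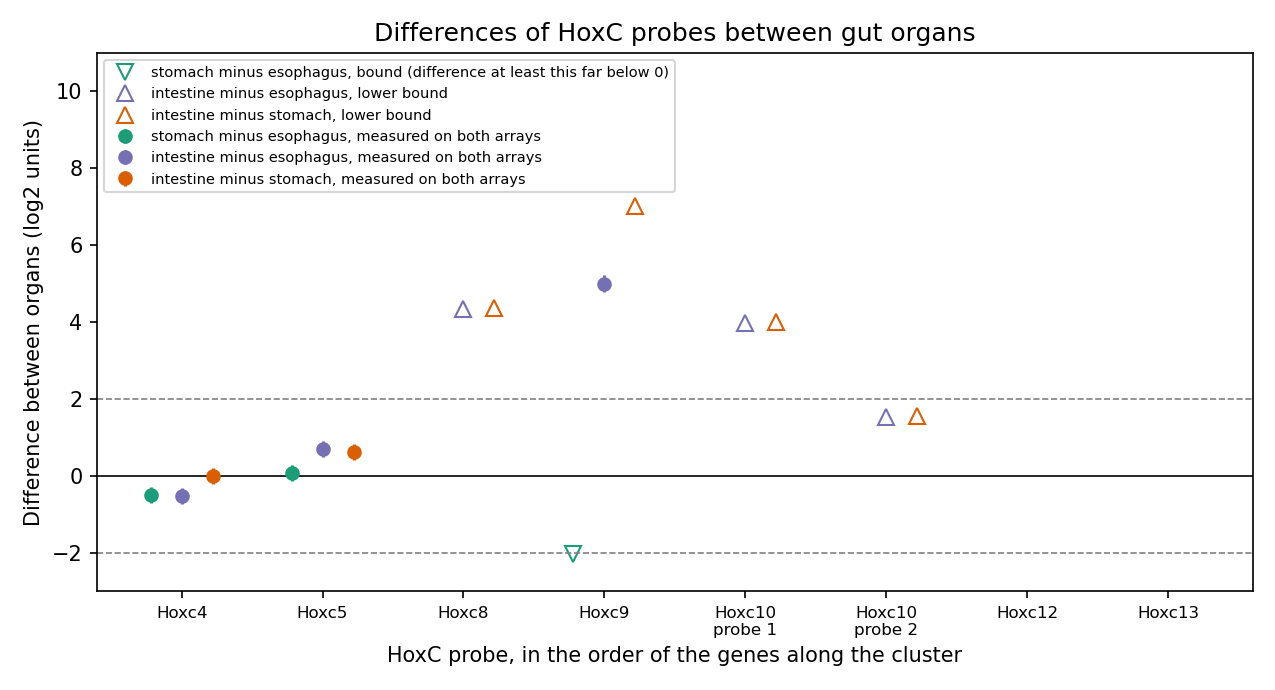
Difference between organs (log2 units) for each HoxC probe in cluster order, with filled points where both arrays measured the probe (bars are the propagated scanner error), triangles for bounds and dashed lines at 4-fold. Hoxc4 and Hoxc5 lie within 1 log2 unit of 0, while Hoxc8, Hoxc9 and the brighter Hoxc10 probe lie between 3.97 and 7.02 for the intestine, and Hoxc12 and Hoxc13 have no value.

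The paralogues in the other clusters place these values. A probe was matched for 18 of them, and 12 were well above background in esophagus, 11 in stomach and 18 in intestine. Over all spots the shares were 69.3%, 67.9% and 74.0% in the same order, and the intestine array had the lowest floor. Against esophagus, 5 of 17 that could be compared stood 4-fold or more higher in intestine and 0 lower, beside 1.82% and 3.85% of all genes. Against stomach, 4 of 17 stood that much higher and 2 lower, beside 1.43% and 1.29% of all genes, with a median of 0.43. In groups 4 and 5, where HoxC members differed little, 0 of 5 paralogues differed by 4-fold in any comparison. Few of all genes did, at most 1.82% higher and 3.85% lower. Hoxa5 was lower in intestine than in stomach (−1.48) while Hoxc5 stood at 0.62.

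In group 8 the members diverged. Hoxd8, like Hoxc8, was well above background in intestine alone, with bounds of 3.79 log2 units against esophagus and 3.44 against stomach. Hoxb8 was instead highest in stomach, at a level of 0.62 against −3.70 in esophagus and −1.75 in intestine. Intestine minus stomach was therefore −2.37 for Hoxb8, and −3.65 by its other probe, where Hoxc8 had a bound of 4.37.

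In group 9 the probes used for Hoxa9, Hoxb9 and Hoxd9 were each well above background in all 3 organs, and stomach minus esophagus was 0.10, 1.80 and 0.10 log2 units. Hoxc9 stood at −2.03 or below in the same comparison. Intestine minus stomach was 0.89 for Hoxa9, −2.63 for Hoxb9 and 1.82 for Hoxd9. The other Hoxd9 probe was well above background in intestine alone, so, like Hoxc9, it was not measured in stomach, and it gave bounds of 5.47 against esophagus and 5.51 against stomach. Against esophagus that bound exceeds the difference measured for Hoxc9, 31.9-fold. For intestine minus stomach, no paralogue probe used for a gene reached the 7.02 of Hoxc9. Where the paralogue's value is itself a bound, its true difference may be larger than printed.

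In group 10 all 3 genes were measured in the same organ. Hoxa10 and Hoxd10 were well above background in intestine alone, as Hoxc10 was. Their bounds against esophagus were 5.50 and 5.49 log2 units beside 3.97 for Hoxc10, and against stomach 5.53 and 5.52 where Hoxc10 was at least 16.0-fold higher. In groups 12 and 13 the clusters parted again. Hoxd12 was well above background in intestine at a level of −6.24, under the floor of the other arrays, so it has no fold. Hoxa13, Hoxb13 and Hoxd13 were well above background in intestine at levels of −4.32, −4.88 and −2.80, and Hoxc12 and Hoxc13 were not. The probe used for Hoxd13 was also well above background in esophagus, at −5.38, and not in stomach, as that of Hoxc9 was. That level lay near the esophagus floor of −5.81. The other Hoxd13 probe gave no difference between stomach and esophagus. For the intestine it gave 0.78 log2 units against esophagus and 0.97 against stomach.

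**Figure D3:**
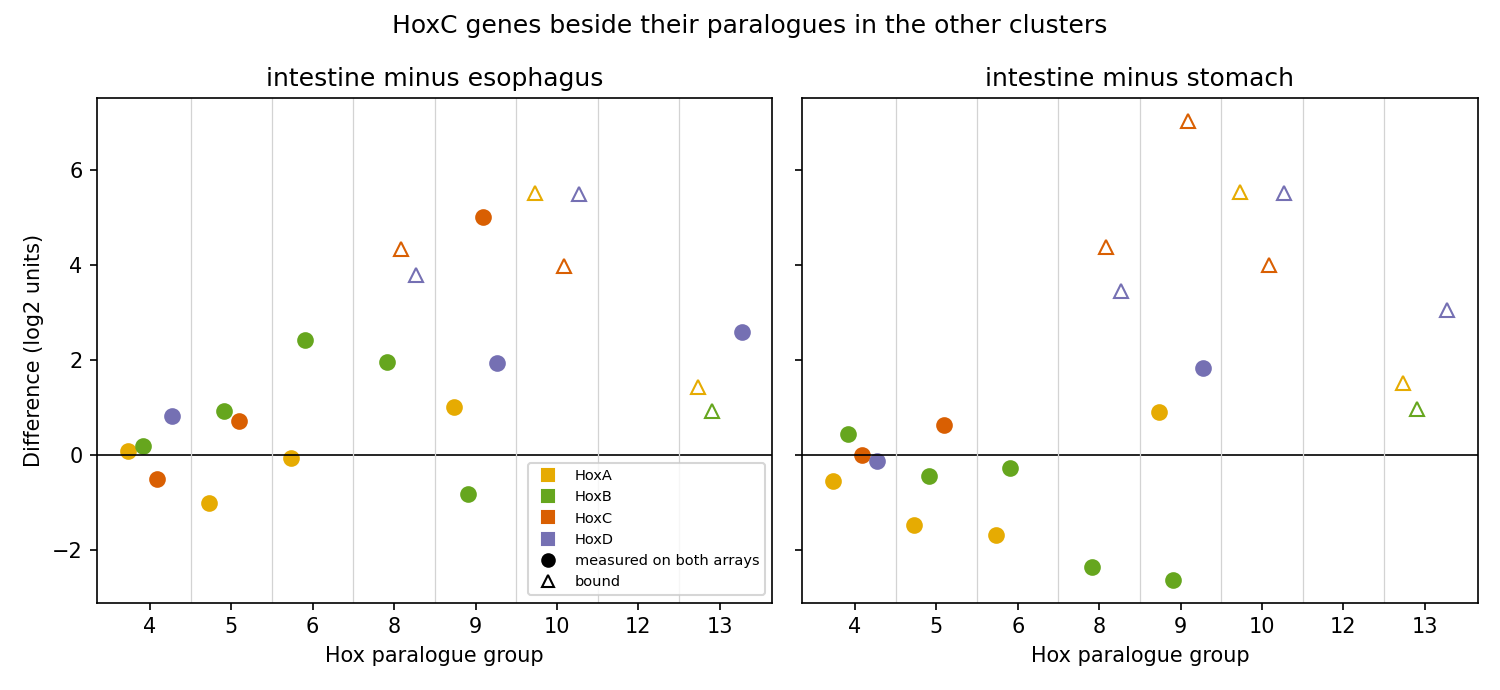
Intestine minus esophagus (left) and intestine minus stomach (right) in log2 units for HoxC genes and their paralogues by paralogue group, with filled circles measured on both arrays and open triangles bounds. Group 4 lies within 1 log2 unit of 0, group 10 lies between 3.97 and 5.53 in all 3 clusters shown, and in group 9 Hoxc9 lies above the probes drawn for Hoxa9, Hoxb9 and Hoxd9, although a second Hoxd9 probe, not drawn, has a bound of 5.47 in the left comparison.

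Among 11 genes known to set Hox expression, Cdx2 had the largest difference between intestine and esophagus, a bound of 7.65 log2 units. Cdx2, the caudal-type factor of intestinal endoderm, had levels of −4.37 in stomach and 1.85 in intestine and was not well above background in esophagus. Cdx4 was not well above background in any organ, and Cdx1 reached a level of −5.57 in stomach only. For intestine minus esophagus, Aldh1a2, which makes retinoic acid, stood at 1.87 log2 units and Cyp26a1, which degrades it, at −3.95. Of the 8 that could be compared between intestine and esophagus, 2 stood 2-fold or more above esophagus and 5 below, with a median of −1.14. Over all genes in that comparison, 20.7% stood that far from esophagus, 8.74% above it and the rest below. The retinoic acid receptors Rara (−1.18), Rarb (−1.11) and Rarg (−1.53) were among the 5.

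Meis, Pbx and Pknox proteins are cofactors that bind DNA with Hox proteins. All 9 genes on that list were well above background in every organ. None differed by 4-fold in any comparison, where at most 1.82% of all genes were higher by that much and 3.85% lower. Between intestine and esophagus, Meis3 (1.35) and Pknox2 (1.46) were at least 2-fold higher and Meis1 (−1.71) lower, 3 of 9 beside 20.7% of all genes, but the second probe of Pknox2 gave −1.29 and that of Meis1 also had the opposite sign, so the direction of both is uncertain. The median over the list was −0.25, beside 0.13 for all genes.

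For each HoxC gene with a signal, the 3 genes with the nearest profile over the 3 arrays were sought among genes well above background on the same arrays, by the distance between levels centred on their mean and set at the array's floor where dim. For Hoxc8 these were Spp2, Clrn3 and Hoxc10, at distances of 0.12, 0.27 and 0.30 log2 units out of 749 candidates. For Hoxc10 they were Clrn3, Apoh and Ptprn2, at 0.032, 0.092 and 0.15. For Hoxc9 the nearest lay farther off: Cyp2c40, Apob and Kng1 lay 1.64, 1.81 and 2.25 away among 231 candidates. For Hoxc4 the nearest were Cdrt4, Tmem47 and Nod1, and for Hoxc5 Polr1b, Cdkl1 and Acap2, all within 0.017 among 12685 candidates. For Hoxc8 and Hoxc10 and the neighbours named for them, esophagus and stomach were both set at the floor. Their distances thus reflect only how near the intestine levels of different probes lay, and do not show a shared profile. With 3 arrays such likeness is a description only.

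The labelled organs carried their own markers, given here as the sum over a list of signal relative to the 75th percentile. The 6 intestine markers summed to 10.1 in intestine, 0.34 in stomach and 0.184 in esophagus. The 6 stomach markers summed to 104 in stomach and 29.5 and 5.99 in esophagus and intestine, and the 6 esophagus markers to 7.75 in esophagus and to 2.97 and 0.402 in stomach and intestine. The 9 liver markers, all well above background in intestine, summed to 88.6 there and to no more than 11.2 in the other organs. Of these 9, 8 stood at least 4-fold above esophagus and 1 that far below, beside 1.82% and 3.85% of all genes. Their part in the intestinal HoxC values was not tested. The 7 heart markers summed to 112 in esophagus and to 3.11 and 3.76 in stomach and intestine. In bulk RNA, more cells that express a gene and more RNA per cell cannot be told apart.

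Hox genes of these groups are also expressed in spinal cord, somites, limb buds and the urogenital ridge. The 12 spinal cord markers summed to 6.51 in intestine, 17.4 in esophagus and 13.3 in stomach. Foxp1 carried most of these sums, at levels of 2.56, 3.39 and 3.34 in the same order, so they say little about the other markers. In intestine, 0 of 9 that could be compared were 2-fold or more above esophagus. Pax6 and Lhx3 were well above background in intestine alone, at levels of −6.26 and −5.94. Both lie under the floor of the other arrays, so they have no fold. The 10 somite and skeletal muscle markers summed to 3.54 in intestine and to 5.63 and 3.08 in esophagus and stomach. The 8 limb markers summed to 5.50 in intestine, 39.1 in esophagus and 76.4 in stomach. Pitx1, also a stomach marker, carried most of these sums, and without it the other 7 summed to 0.396, 13.8 and 1.48, so that esophagus and not stomach was highest. The 9 urogenital ridge markers summed to 1.82, 1.75 and 2.88, with Pax8 and Emx2 not well above background in any organ and Hoxd11, itself a Hox gene on that list, in intestine alone. The 7 gut mesenchyme genes summed to 26.3 in intestine, 28.5 in esophagus and 18.9 in stomach. For intestine minus esophagus, 3 of them, Nkx2-3 (6.83 log2 units), Hand1 (a bound of 8.13) and Hand2, stood at least 4-fold higher beside Hoxc8, Hoxc9 and Hoxc10, and Osr1 (−4.50) went the other way. Over all genes, 1.82% stood that far above esophagus and 3.85% that far below. The part of these tissues in the HoxC values was not tested.

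**Figure D4:**
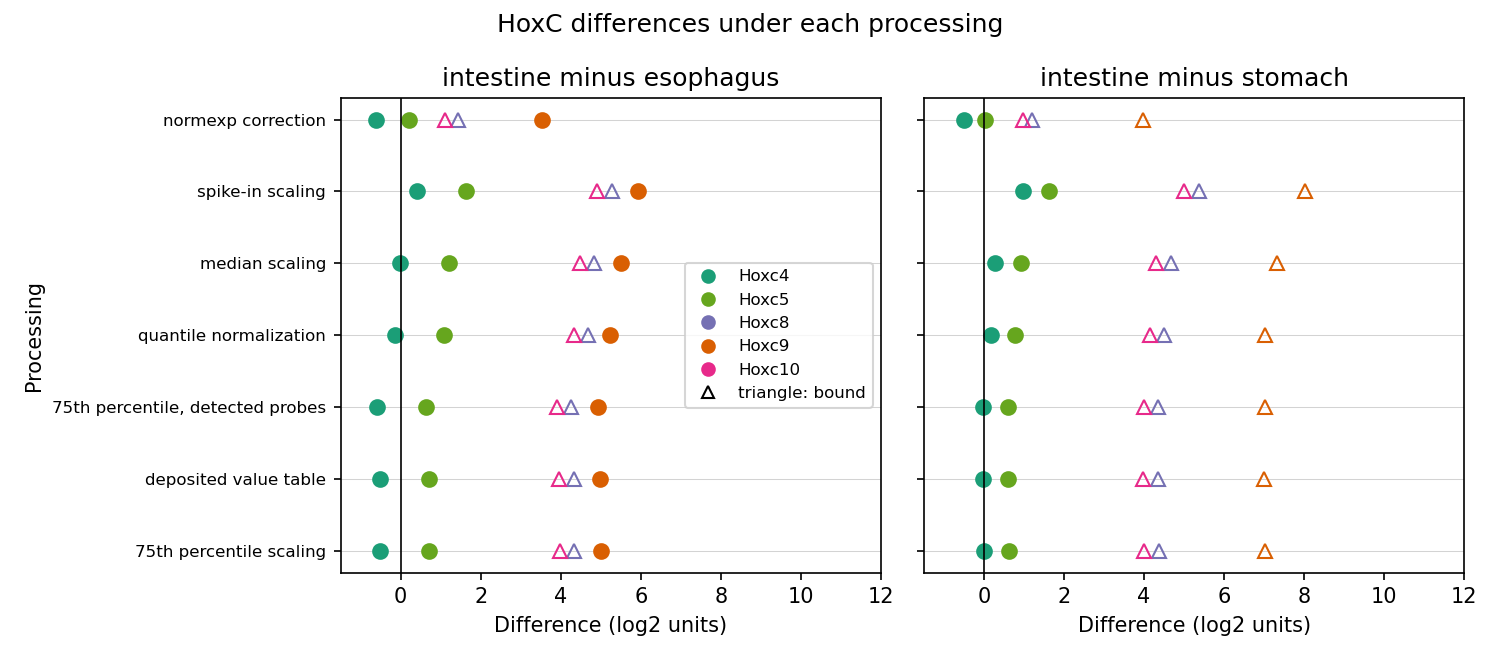
Intestine minus esophagus (left) and intestine minus stomach (right) in log2 units for 5 HoxC genes under each processing, with circles for genes measured on both arrays and triangles for bounds. Hoxc8, Hoxc9 and Hoxc10 lie above 0 in every row, but a triangle cannot fall below 0, because a bound that would turn gives no fold. Hoxc5 runs from 0.04 to 1.64, and Hoxc4 lies on both sides of 0.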

How the data were processed

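Per the file headers, the deposited intensity of each spot came from Agilent Feature Extraction (version 10.5.1.1), which subtracted background and removed trends across the array. A deposited table of log2 values from the authors lay within 0.01 log2 units of the scanner levels, after a constant of 0.05 to 0.07, for at least 99.8% of probes.

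From 70 to 111 spots per array carried an outlier mark and were not used; none was saturated. A probe was well above background when more of its spots than not had that flag. Accessions were matched without versions to a RefSeq table of GRCm38.p6. Its gene positions gave only the order of the HoxC genes along the cluster, because the array's own design names another build. Of 41112 probes, 24342 had 1 symbol and 16770 none. The probe with the highest mean stood for a gene in counts over all genes. Genes whose bound gave no fold were not counted as compared. Thresholds were 4-fold and 2-fold. The counting was tested on simulated data. The HoxC genes are defined by name, but the cluster and the gene lists were chosen as a subject with earlier results of these data known. The named genes were all 8 members with every probe, the 3 nearest profiles of each, and members of the lists. Python 3.11.15 and limma 3.58.1 (quantile normalization, and normexp with offset 50 on the median signal) were used. Alternatives were other scalings, normexp, the deposited table, other detection rules and the second probe.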

Additional observations from a re-analysis of the deposited data

How the results depend on the processing

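Between stomach and esophagus, the 1 HoxC gene at least 4-fold apart, Hoxc9, became 0 after normexp correction, under median scaling, under quantile normalization, and with signal well above background on both arrays; the first 3 shrink its bound below 4-fold and the last drops bounds. Between intestine and esophagus the 3 genes became 1 after normexp correction and 1 with both arrays measured. Between intestine and stomach they became 1 and 0. After normexp, whose offset is added to every signal, Hoxc9 was the gene left. With the dimmer Hoxc10 probe the intestine counts were 2. Without the filter on dim probes they were 4, the fourth being Hoxc13, which was lower in intestine but dim on every array. The positive and significant flag, which is less strict, gave 6 genes in esophagus and 4 in stomach, against 3 and 2, and 5 in intestine, so that esophagus and not intestine had the most.

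Past 4-fold, only Hoxc9 between intestine and esophagus was measured on both arrays, and it kept its sign under each processing tried. The other differences past 4-fold are bounds. A bound cannot change sign, because one that would turn gives no fold and is left out. Spike-in scaling, added after seeing the data, raised the intestine differences and moved 12 of 15 by more than the median SD between probes of 1 gene, with the sign of Hoxc4 turned in 2. The percentile over detected probes and the deposited value table moved 0 of 15 by that much. No paired analysis was possible because each organ has 1 array. A spot near the floor limits every bound given.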

Other observations

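Of 12 genes with a probe that flank the HoxC cluster, 0 differed by 4-fold in any comparison. Few genes did: over all genes, 0.684% to 1.82% were higher by that much and 1.29% to 3.85% lower, depending on the comparison. Among the 12 were Smug1, a DNA repair gene, Cbx5, a heterochromatin protein gene, and Calcoco1. The median for intestine minus stomach was −0.06 log2 units, beside −0.02 for all genes. Smug1 stood at 1.16 and Pde1b at −1.30 for intestine minus esophagus.

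The 11 measured chromatin regulators of Hox clusters were well above background in every organ. In any comparison, 0 differed by 4-fold, beside the same small shares of all genes, at most 1.82% higher and 3.85% lower. Ezh2, the methyltransferase of the Polycomb complex, stood at 0.19 and Kdm6b, a demethylase of the same mark, at −0.68 for intestine minus esophagus. Kdm6a (−1.24) was the 1 gene of 11 past 2-fold, beside 20.7% of all genes. The second probes of Bmi1 and Suz12 gave −2.34 and −1.63 in that comparison, against 0.10 and 0.66 for the probes used.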
